A study of Homo sapiens with 6 samples.

Results

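The proteasome is the large protease that degrades ubiquitin-tagged proteins, and its genes were examined in MDA-MB-436 cells with and without silencing of MUC1. The members were the 46 of 37887 gene symbols in the count table that have PSMA, PSMB, PSMC, PSMD, PSME, PSMF or PSMG followed by a number. PSMB8 and PSMB9, which belong with antigen presentation, were left out by the same rule. Of the 46 members, 17 encode the core particle, 17 the regulatory particle and 12 chaperones, activators or an inhibitor, and 44 passed the low-count filter and were tested. The filter keeps a gene that is expressed in either group, and the 2 members that did not pass it, PSMA8 and PSMB11, were at or near 0 in both.

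MDA-MB-436 is a cell line from a triple-negative breast cancer with mutant BRCA1. The cells used here held a MUC1 shRNA under a tetracycline-inducible promoter in the pLKO-tet-puro vector, and were selected with puromycin. RNA-seq libraries came from 3 cultures with the 0.1% DMSO vehicle (control) and 3 with 500 ng/ml doxycycline (shMUC1). Sample titles name the former a control shRNA, whereas the treatment labels describe the inducible MUC1 shRNA cells without doxycycline, and the latter reading was used. On that reading both groups carry the vector, and what differs is doxycycline and the shRNA it induces. These cannot be told apart without a doxycycline-treated control shRNA library, which was not analysed here. Whether the doxycycline cultures also held DMSO is not given in the sources used here, so the vehicle may differ as well. The length of treatment is not given for this line in the sources used here, and the inducible shRNA is 1 hairpin. MUC1 encodes a mucin whose transmembrane subunit, MUC1-C, was the subject of the study, in particular its link to interferon response genes.

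The core particle is a barrel with outer rings of alpha subunits (PSMA genes) and inner rings of beta subunits (PSMB genes). PSMB5, PSMB6 and PSMB7 encode the beta subunits with chymotrypsin-like, caspase-like and trypsin-like activity, and interferon gamma can exchange them for the immunosubunits PSMB8, PSMB9 and PSMB10. The regulatory particle caps the barrel. Its base holds a ring of ATPases (PSMC genes) that unfold substrates, and its lid holds the deubiquitinase PSMD14. Cells usually make these subunits in balanced amounts, and the transcription factor NFE2L1 raises their genes together when proteolysis is impaired. MDA-MB-436 cells, like other dividing cells, need the protease for growth, and the drug bortezomib acts on the PSMB5 subunit.

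Library totals ran from 18678307 to 27825546 counts, and the mitochondrially encoded share was 3.35% to 4.17% in control and 4.95% to 5.22% in shMUC1 libraries, whose part in the results was not tested. MUC1, the target, had 93, 84 and 102 counts in control and 72, 51 and 34 counts in shMUC1 libraries, a log2 fold change of -0.84 (SE 0.214, adjusted p = 0.00119). The labelled breast cancer type was checked on its markers. ESR1 had 2 to 12 counts per library, PGR 0 to 4 and ERBB2 38.4 to 47.3 counts per 1000000 counts (CPM). The epithelial keratins KRT8 and KRT18 were present at 409 to 840.0 CPM and 127 to 272 CPM and were higher in every shMUC1 library, whereas the mesenchymal VIM was lower, at 692 to 744 CPM in control and 395 to 445 CPM in shMUC1 libraries. Of markers of other cell types, the leukocyte gene PTPRC had 0.0912 to 0.387 CPM in control and 0.538 to 0.932 CPM in shMUC1 libraries, and the fibroblast gene COL1A1 at most 4.38 CPM. The part of these shifts in the results was not tested.

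To determine whether proteasome genes change when MUC1 is silenced, counts were tested with edgeR's quasi-likelihood test, and genes were called at a Benjamini-Hochberg adjusted p under 0.05 over the 15355 genes tested. The data show 1 subunit gene that fell far from the rest. PSMB5 was 2.58-fold lower in shMUC1 cells (log2 fold change -1.37, SE 0.0523, n = 3 each). PSMF1, which encodes the proteasome inhibitor PI31, rose 1.38-fold (log2 fold change 0.47, SE 0.0386). The other 42 tested members had log2 fold changes between -0.23 and 0.22.

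Among the 44 tested members, 15 were higher and 4 lower in shMUC1 cells, where 25.2% of all tested genes were higher and 23.6% lower. The share of members called higher, 15 of 44, was above that background and the share called lower was under it, with no test of either difference. The median log2 fold change of the members was 0.08, against 0.00058 over all tested genes. Past a fold change of 1.5 there was 1 lower member, PSMB5, with 8.34% of all genes lower, and no higher member, with 5.51% of all genes higher. Groups did not overlap in CPM for 18 members that were higher in shMUC1 and 7 that were lower, against 28.1% and 26.8% of all tested genes.

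The small rises depended on the processing. With scaling by library totals only, 10 members were called higher, and 10 when genes needed a mean of at least 50 counts. Members have shorter transcripts than other genes, with a median of 1631 bases against 3199 bases, and their median GC content was 48.9% against 48.2%. The dependence of each library on GC content and transcript length was then taken out, an alternative chosen after seeing the data. Correction for GC content and length means this step only. The trend was fitted in each library across genes, so the step cannot separate a technical trend from a response that follows length or GC content. It may remove either. In that fit 6 members were higher, each of which was among the 15, and 6 were lower. The median of the members was 0.01, against -0.0046 over all genes in that fit. The share of all genes called in that fit is not given here, so the change from 15 to 6 has no background beside it. The 6 that stayed higher were PSMB6, PSMC2, PSMD4, PSMD5, PSME3 and PSMF1, and PSMB5, PSMD3 and PSMD14 stayed lower. Leaving out each library in turn, without that correction, 8 of the 15 higher calls and 2 of the 4 lower calls held without each library. The 8 were PSMA7, PSMB6, PSMC2, PSMC6, PSMD4, PSMD5, PSME3 and PSMF1, and the 2 were PSMB5 and PSMD14.

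**Figure D1:**
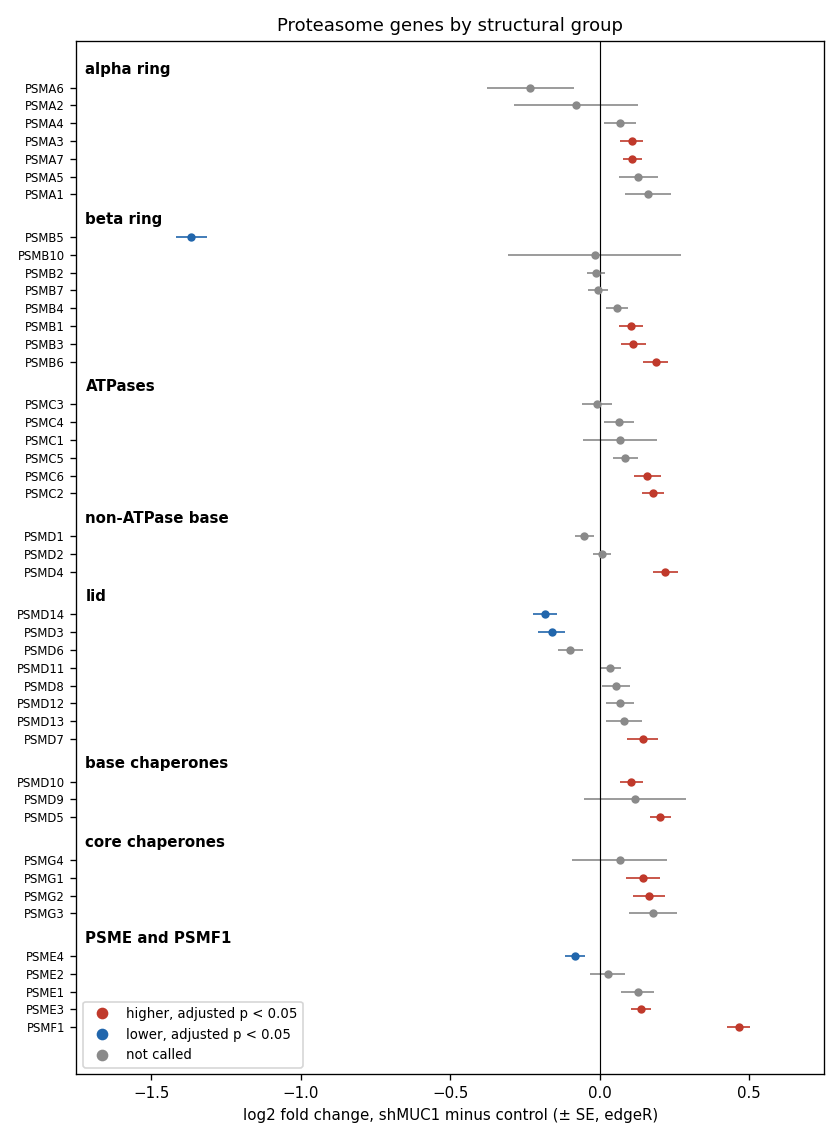
Log2 fold change (shMUC1 minus control, x axis) of the 44 tested proteasome genes, grouped by structure; points are edgeR estimates, bars are SE, and colour gives the call. PSMB5 stands at -1.37 and PSMF1 at 0.47, while the other 42 lie between -0.23 and 0.22.

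**Figure D2:**
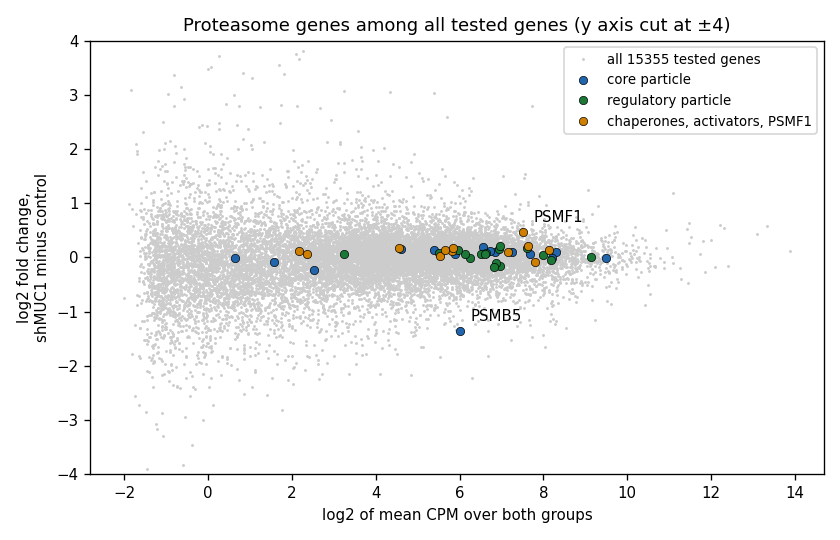
Log2 fold change (y axis) against the log2 of the mean CPM over both groups (x axis) for the 15355 tested genes in grey, with core particle, regulatory particle and other proteasome genes in colour. Most members lie near 0 at middle to high levels, and PSMB5 lies below them.

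The alpha ring was examined first. It forms the gate and outer wall of the core particle. Of its 8 genes 7 were tested, of which PSMA3 (0.11, SE 0.039) and PSMA7 (0.11, SE 0.0316) rose on the log2 scale with adjusted p of 0.0208 and 0.00414, and none fell. PSMA3 lost its call without control replicate 2 or 3 or shMUC1 replicate 3 (adjusted p of 0.0798 to 0.119). PSMA1, at the top of this ring by fold change, had 23.7, 22.5 and 23.0 CPM in control and 25.3, 27.1 and 25 CPM in shMUC1 libraries. PSMA6, at the bottom, had 6.29, 5.83 and 6.47 CPM in control and 5.43, 5.32 and 5.05 CPM in shMUC1 libraries. Neither pair of groups overlapped, yet neither gene passed the test, with log2 fold changes of 0.16 (adjusted p = 0.0773) and -0.23 (adjusted p = 0.197). After correction for GC content and length neither rise held (0.0037 with adjusted p = 0.947 for PSMA3, 0.0077 with adjusted p = 0.858 for PSMA7), and PSMA6 was called lower, at -0.35 (adjusted p = 0.0468). PSMA8, which encodes the testis form of an alpha subunit, was at 0 counts in each of the 6 libraries. In the shallowest library the floor of 3 counts is 0.161 CPM. It allows for counting error only and would be higher if both reads of a pair were counted.

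PSMA6 and PSMA2 were counted at only 138 and 70.8 counts on average, although the ring needs each subunit. The pseudogene PSMA6P1 had 64.7 counts on average. Exonic length shared with another gene on the same strand is 14.1% for PSMA6 and 14.6% for PSMA2. The counts of these genes are uncertain where reads match more than 1 copy.

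In the beta ring, 8 of 9 genes were tested. PSMB1, PSMB3 and PSMB6 rose, by 0.10 (SE 0.0405), 0.11 (SE 0.0412) and 0.19 (SE 0.0424) on the log2 scale, with adjusted p of 0.0311, 0.0228 and 0.000322. PSMB1 lost its call without control replicate 2 or 3 or shMUC1 replicate 1 or 2 (adjusted p of 0.0547 to 0.127), and PSMB3 without control replicate 2 (0.0922) or shMUC1 replicate 3 (0.0662). After correction for GC content and length PSMB1 stood at -0.01 (adjusted p = 0.806) and PSMB3 at 0.03 (adjusted p = 0.51), and only PSMB6 of the 3 kept its call (0.11, adjusted p = 0.0307). PSMB5 was the 1 gene of this ring called lower without that correction. PSMB2, a structural subunit and the member with the highest CPM, not corrected for length, stood at 685 to 751 CPM across the libraries and was not called (log2 fold change -0.01, SE 0.0313).

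PSMB5, the chymotrypsin-like subunit, had 2127, 2244 and 2320 counts in control and 991, 915 and 686 counts in shMUC1 libraries. As levels these were 97.0, 92.1 and 89.8 CPM against 35.9, 35.5 and 36.9 CPM. The groups were far apart, and the spread within each was small. As RNA of whole cultures was measured, fewer cells with the transcript and less of it per cell cannot be told apart. The adjusted p was 2.17e-22, and 277 of the 15355 tested genes had a lower log2 fold change. Over the 15 alternatives tried, its log2 fold change ranged from -1.48 to -1.33 and stayed called in each. PSMB5 lies on chr14:23016543-23035230 (GRCh38, minus strand), and no exon of another annotated gene overlaps its exons.

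PSMB6, the caspase-like subunit, had 88.4, 88.6 and 88.5 CPM in control and 103, 99.8 and 99.7 CPM in shMUC1 libraries. PSMB7, the trypsin-like subunit, had 299, 304 and 289 CPM in control and 293, 308 and 289 CPM in shMUC1 libraries. Of the 3 catalytic genes, 1 fell, 1 rose and 1 was not called. The PSMB6 groups did not overlap and those of PSMB7 did, with a log2 fold change for PSMB7 of -0.0042 (95% interval -0.07 to 0.06, adjusted p = 0.932). After correction for GC content and length, PSMB7 was called lower at -0.12 (adjusted p = 0.00251).

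Within each library, the log2 ratio of PSMB5 to PSMB6 was 0.13, 0.06 and 0.02 in control and -1.52, -1.49 and -1.43 in shMUC1 cells. The means were 0.07 ± 0.0577 (SD, n = 3) and -1.48 ± 0.0434 (SD, n = 3), a difference of -1.55. The ratio of PSMB5 to PSMB7 differed by -1.36. These ratios restate the levels of the genes. An exact permutation test over the libraries gave p = 0.1 for each, the smallest value that 3 against 3 libraries allow, so it cannot decide. Per kilobase of exon, the level of PSMB5 went from 52.7 ± 2.08 to 20.4 ± 0.397 CPM per kb (SD, n = 3), that of PSMB6 from 61.1 ± 0.0572 to 69.6 ± 1.26, and that of PSMB7 was 166 ± 4.34 and 166 ± 5.59. In control cells PSMB5 stood next to PSMB6 on this scale, and in shMUC1 cells well under it.

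The immunosubunit PSMB10, which interferon gamma induces, had 33, 37 and 44 counts in control and 45, 36 and 31 counts in shMUC1 libraries. Its level in control cells was 0.85 ± 0.0598 CPM per kb (SD, n = 3), far under that of the constitutive PSMB7 it can replace. The groups overlapped, and the log2 fold change was -0.02 with a 95% interval of -0.60 to 0.57, so only a large change could have been detected at this depth. PSMB11, the thymus form, had 0, 0 and 4 counts in control and 0, 0 and 2 in shMUC1 libraries, and was not tested.

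**Figure D3:**
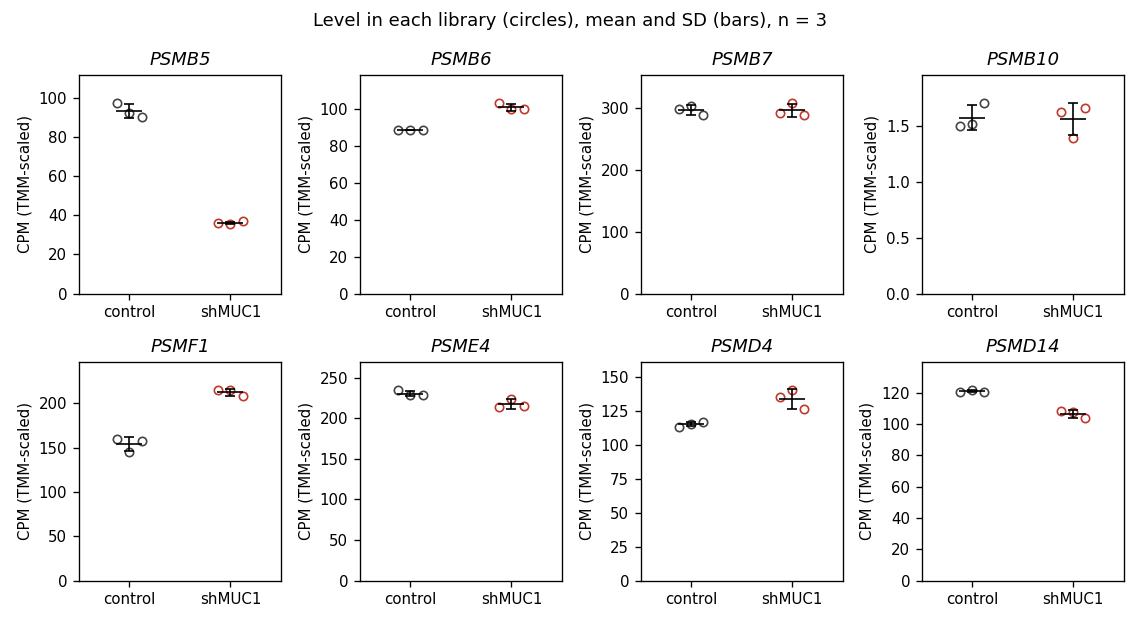
CPM (y axis, from 0) of 8 proteasome genes in each library; circles are libraries, horizontal marks are means and bars are SD (n = 3). PSMB5 falls from about 93.0 to 36.1 CPM, PSMF1 rises from 154 to 213 CPM, and PSMB7 and PSMB10 overlap between the groups.

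The ATPase ring of the base unfolds substrates and feeds them into the barrel. Of its 6 genes, PSMC2 and PSMC6 rose, by 0.18 (SE 0.0364) and 0.16 (SE 0.0439) on the log2 scale with adjusted p of 8.96e-05 and 0.00255, and none fell. After correction for GC content and length PSMC6 lost its call (0.09, adjusted p = 0.0968) and PSMC2 kept it (0.16, adjusted p = 0.000126). PSMC2 had 184, 186 and 177 CPM in control and 199.8, 207 and 213 CPM in shMUC1 libraries, with no overlap. PSMC3 had 74.0, 74.0 and 81.6 CPM in control and 78.9, 74.2 and 75.1 CPM in shMUC1 libraries, and these overlapped. Its log2 fold change was -0.0080 (95% interval -0.11 to 0.09). PSMC1 could not be read firmly, since its pseudogene PSMC1P1 had more counts (351 against 225 on average) and 75.8% of its exonic length lies opposite NRDE2.

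Of the 3 non-ATPase base genes, PSMD4 rose and PSMD1 and PSMD2 were not called. PSMD4 encodes a ubiquitin receptor, which holds the tagged substrate. It had 114, 116 and 117 CPM in control and 135, 140.5 and 126 CPM in shMUC1 libraries, without overlap, a log2 fold change of 0.22 (SE 0.0415, adjusted p = 3.08e-05). PSMD1, a large scaffold subunit, had 304, 295 and 292 CPM in control and 289.8, 288 and 282 CPM in shMUC1 libraries. All 3 shMUC1 libraries lay under the control libraries, but by less than the test could call (-0.05, SE 0.0325, adjusted p = 0.204).

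The lid removes ubiquitin before degradation. Of its 8 genes, PSMD7 rose, PSMD3 and PSMD14 fell, and 5 were not called. PSMD14, the deubiquitinase, had 121, 122 and 121 CPM in control and 108, 107 and 103 CPM in shMUC1 libraries, with no overlap (log2 fold change -0.18, SE 0.0402, adjusted p = 0.000217). PSMD7, its binding partner, had 59.6, 61.9 and 56.3 CPM in control and 64.5, 66.5 and 65.6 CPM in shMUC1 libraries (0.14, SE 0.0517, adjusted p = 0.0193). The first gene was lower and the second higher in every shMUC1 library. PSMD3, a scaffold subunit described here because it was called, had 141, 126 and 125 CPM in control and 115, 122 and 113 CPM in shMUC1 libraries (-0.16, SE 0.0441, adjusted p = 0.00256). Its call rested on control replicate 1, and without that library it had a log2 fold change of -0.10 (adjusted p = 0.0716). PSMD7 lost its call without control replicate 3 (0.10, adjusted p = 0.159) or without shMUC1 replicate 2 (0.14, adjusted p = 0.0606). After correction for GC content and length PSMD7 was not called (0.04, adjusted p = 0.586), and PSMD6, at -0.10 (adjusted p = 0.0563) without it, was called lower (-0.21, adjusted p = 3.33e-05).

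The log2 ratio of PSMD4, the receptor, to PSMD14, the deubiquitinase, went from -0.07 ± 0.0192 (SD, n = 3) in control to 0.33 ± 0.0494 (SD, n = 3) in shMUC1 cells. The difference of 0.40 restates that PSMD4 was higher and PSMD14 lower. Here too the exact permutation test gave p = 0.1, the smallest value it can give, and cannot decide.

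To compare the core with the regulatory particle, the mean log2 CPM of the 15 tested core genes and of the 17 regulatory genes was taken in each library. The core had 5 higher and 1 lower gene and a median log2 fold change of 0.07, and the regulatory particle had 4 higher, 2 lower and a median of 0.06. Over all tested genes 25.2% were higher and 23.6% lower. The counts of the particles, rings, base and lid were not tested against these shares. Core minus regulatory was -0.84, -0.85 and -0.82 in control and -0.91, -0.92 and -0.92 in shMUC1 libraries. The means, -0.83 ± 0.0168 and -0.92 ± 0.00417 (SD, n = 3), differed by -0.08, and the groups did not overlap.

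That difference was carried by PSMB5. Without it, core minus regulatory was -0.89, -0.90 and -0.86 in control and -0.87, -0.88 and -0.87 in shMUC1 libraries. These overlapped, and the difference was 0.01, of the opposite sign. The summed level of all 46 members was 5843 ± 65.0 CPM in control and 6037 ± 24.4 CPM in shMUC1 cells (SD, n = 3).

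**Figure D4:**
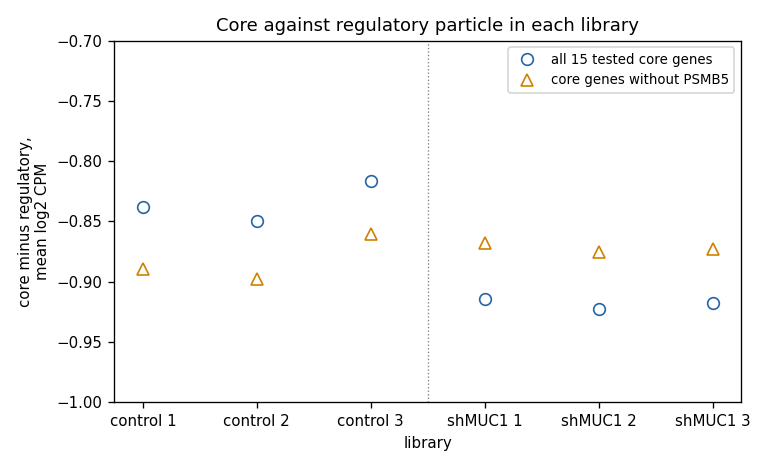
Mean log2 CPM of core genes minus that of regulatory particle genes (y axis, which does not start at 0) in each library (x axis); circles use all 15 tested core genes and triangles leave out PSMB5. Circles are lower in shMUC1 libraries, by 0.08 on average, whereas triangles overlap between the groups.

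Chaperones build the particle and do not stay in it. Of the base chaperones, PSMD5 rose from 185, 183 and 186 CPM in control to 211, 218 and 208 CPM in shMUC1 libraries, a log2 fold change of 0.20 (SE 0.0352, adjusted p = 8.4e-06). PSMD10, also called gankyrin, had 136, 138 and 141 CPM against 149, 148 and 148 CPM (0.11, SE 0.0376, adjusted p = 0.0185). Its call was lost without control replicate 1 (adjusted p = 0.0705) or shMUC1 replicate 1 (adjusted p = 0.0566). The same held with library totals (adjusted p = 0.061) and with a filter at a mean of 50 counts (adjusted p = 0.0557). After correction for GC content and length it stood at 0.0032 (adjusted p = 0.953). PSMD9 was not called at means of 4.29 CPM in control and 4.63 CPM in shMUC1 cells. In both PSMD5 and PSMD10 every shMUC1 library lay above every control library.

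Of the 4 core chaperones, PSMG1 and PSMG2 rose, by 0.14 (SE 0.0562, adjusted p = 0.0317) and 0.17 (SE 0.0546, adjusted p = 0.0116). PSMG1 lost its call without any of 5 libraries, all but shMUC1 replicate 2 (adjusted p of 0.0563 to 0.133), and PSMG2 without control replicate 1 (0.086) or 3 (0.0514). Neither was called after correction for GC content and length (0.06 with adjusted p = 0.36, and 0.07 with adjusted p = 0.317). PSMG3 had 21.6, 21.0 and 23.8 CPM in control and 24.6, 25.3 and 25.3 CPM in shMUC1 libraries, and PSMG4 had 4.88, 4.93 and 5.23 CPM against 5.21, 5.94 and 4.52 CPM. PSMG3 did not overlap but was not called (0.18, adjusted p = 0.0605), and PSMG4 overlapped.

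Activators bind the ends of the barrel in place of the regulatory particle. PSME1 and PSME2 encode the interferon gamma-inducible PA28 alpha and beta subunits. PSME1 had 50.7, 54.2 and 57.5 CPM in control and 56.6, 59.0 and 62.2 CPM in shMUC1 libraries, and PSME2 had 46.8, 44.5 and 46.2 CPM against 48.6, 43.8 and 47.7 CPM. Both overlapped between groups and neither was called, with log2 fold changes of 0.13 (95% interval 0.01 to 0.24, adjusted p = 0.0602) and 0.03 (95% interval -0.09 to 0.15, adjusted p = 0.744). PSME1 was called higher without control replicate 3 (0.16, adjusted p = 0.0288), without shMUC1 replicate 1 (0.16, adjusted p = 0.0408) or without the low-count filter (0.14, adjusted p = 0.0492). PSME2 and PSMB10 were called in no alternative run, which does not show that they were equal between the groups.

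PSME3, the nuclear PA28 gamma, had 276, 269 and 263 CPM in control and 299.8, 299 and 290.4 CPM in shMUC1 libraries, without overlap (0.14, SE 0.033, adjusted p = 0.000657). PSME4, the activator PA200, had 235, 228 and 228 CPM in control and 214, 224 and 214 CPM in shMUC1 libraries. The PSME4 groups lay close together (-0.08, SE 0.0346, adjusted p = 0.0485). Its call was lost without control replicate 1 or 2 or shMUC1 replicate 1 or 3, with adjusted p of 0.0616 to 0.194. It was also lost without the low-count filter (-0.07, adjusted p = 0.131) and after correction for GC content and length (-0.04, adjusted p = 0.33).

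PSMF1 encodes PI31, which inhibits the core particle in the test tube and also takes part in moving proteasomes in cells. It had 160.2, 145 and 158 CPM in control and 215, 215 and 208 CPM in shMUC1 libraries. The groups did not overlap, and the adjusted p was 9.02e-13. Over 15 alternatives its log2 fold change ranged from 0.42 to 0.50. Of the tested genes, 1574 had a higher log2 fold change. PSMF1 lies on chr20:1113263-1189415 (GRCh38, plus strand), and 2.95% of its exonic length is shared with a gene on the same strand.

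Some members share sequence or position with other genes. The antisense genes PSMA3-AS1, PSMG3-AS1 and PSMD6-AS2 had 496, 65.2 and 48.8 counts on average. Exons of antisense genes lie opposite 3.06% of the exonic length of PSMG3 and 7.83% of that of PSMD6, and opposite none of PSMA3. Whether counting used strand is not given in the sources used here. Reads of PSMG3 and PSMD6 may thus not be fully separate from those of their antisense genes. Exonic length shared with a gene on the same strand was 34.8% for PSMB10, 24.7% for PSMA1 and 19.9% for PSMD9. Of 32 pseudogenes of members in the table, 3 had a mean of at least 20 counts, PSMC1P1, PSMA6P1 and PSMD10P1. PSMB5 has neither an overlapping exon nor a named pseudogene in the table.

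Of the 25 members that were not called, 16 had a 95% interval within ±0.25 on the log2 scale. The widest bound was 0.60 in size, so changes of that size in the low-count members could not be told from none.

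The other genes of ubiquitin-proteasome degradation, a list of 29 receptors, deubiquitinases, assembly factors, enzymes and shuttles, had 8 higher and 8 lower genes and a median log2 fold change of 0.03. Thus they moved both ways, with calls near the shares over all genes. The largest falls were larger than that of any member but PSMB5. NPLOC4, a cofactor that brings substrates to the unfoldase VCP, had 142, 145 and 145 CPM in control and 75.7, 73.7 and 73.9 CPM in shMUC1 libraries (-0.95, SE 0.0411, adjusted p = 7.97e-21). UBA6, a ubiquitin-activating enzyme, had 95.9, 104 and 98.8 CPM against 55.6, 54.5 and 58.9 CPM (-0.83, SE 0.0488, adjusted p = 7.43e-17). NFE2L2, a stress transcription factor also called NRF2, had 255, 259 and 251 CPM against 166, 184 and 162 CPM (-0.58, SE 0.0394, adjusted p = 4.52e-15). None of these overlapped between the groups.

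UCHL5, a deubiquitinase on the regulatory particle, was lower at -0.24 (SE 0.041, adjusted p = 6.08e-06). The largest rises were in the VCP cofactor FAF1 (0.37, adjusted p = 1.67e-09) and the proteasome-associated PITHD1 (0.35, adjusted p = 1.09e-05). NFE2L1, the proteasome gene activator, was slightly lower (-0.11, SE 0.0414, adjusted p = 0.0236). POMP, the assembly factor that helps PSMB5 into the ring, had 105, 102 and 105 CPM against 103, 97.3 and 102 CPM and was not called (-0.05, adjusted p = 0.369). Its groups overlapped. The 8 higher genes of the list became 4 without control replicate 3 and 5 without shMUC1 replicate 3.

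The 3' UTRs of members were then searched for the 7-base word ATCAGTA. An earlier scan of these same 6 libraries had tied the word to lower expression, so what follows is a description and not independent evidence, and the sequence of the shRNA was not used here. The word lies in an annotated 3' UTR of 7 of the 44 tested members (15.9%), 6 of the 29 other genes (20.7%), 12.7% of 12997 tested genes and 22.0% of the 3253 genes called lower. A gene was counted if at least 1 of its coding transcripts held the word there. PSMB5 holds it in the 3' UTR of 4 of its 5 coding transcripts and a second time in its coding sequence. PSMA4, PSMG4 and NPLOC4 hold it in 1 of 7, and PSMC1 and UBA6 in 1 of 2. NPLOC4 also has the word in its coding sequence. Windows of 29 bases from GENCODE 29 transcripts, with the word in capitals, are shown for PSMB5 and PSMD14, which fell, for PSMD11 and PSMA5 (1 of its 2 sites), which were not called, for the strongest falls of the pathway list and for MUC1, so that the letters around the word can be compared:
PSMB5 3' UTR, chr14:23025975-23025981, minus strand: ccttcaattgtATCAGTActtttttttaa
PSMB5 coding sequence, chr14:23033427-23033433, minus strand: caacatggtgtATCAGTAcaaaggcatgg
PSMD14 3' UTR, chr2:161411659-161411665, plus strand: tatttgaaaaaATCAGTAgcacaaatata
PSMD11 3' UTR, chr17:32482283-32482289, plus strand: gttttggcaccATCAGTAtcaaatgtaca
PSMA5 3' UTR, chr1:109401045-109401051, minus strand: gggaagatggtATCAGTAtcactacttaa
NPLOC4 3' UTR, chr17:81558620-81558626, minus strand: taataacagttATCAGTAattcctgccca
UBA6 3' UTR, chr4:67618860-67618866, minus strand: ttaagggaaacATCAGTAagaaactgcac
NFE2L2 3' UTR, chr2:177230604-177230610, minus strand: cagtatgttgaATCAGTAgtttcacttta
MUC1 coding sequence, chr1:155187772-155187778, minus strand: gacacagttcaATCAGTAtaaaacggaag

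Of the 7 members with the word in a 3' UTR, PSMB5 and PSMD14 were lower and PSMA4, PSMA5, PSMC1, PSMD11 and PSMG4 were not called, with log2 fold changes of 0.04 to 0.13. Of all tested genes, 43.2% of the 1656 that hold the word in a 3' UTR were called lower and 22.4% of the 11341 that do not. The 2 of 7 members lie between these shares, and no difference can be read from them. A longer 3' UTR has more places for the word. Median transcript length was 4057 bases in genes called lower, 3353 in genes called higher and 3199 over all tested genes, and the part of length was not tested. Of the 6 other pathway genes with it, NPLOC4, UBA6, NFE2L2 and UCHL5 were lower and TXNL1 and PAAF1 were not called. PSMD3, which was lower, and PSMA1 and PSMA6, which were not called, hold the word in their coding sequence and not in a 3' UTR. PSME4, the other lower member, holds it in no annotated transcript. Whether the word bears on any of these levels was not tested.

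**Figure D5:**
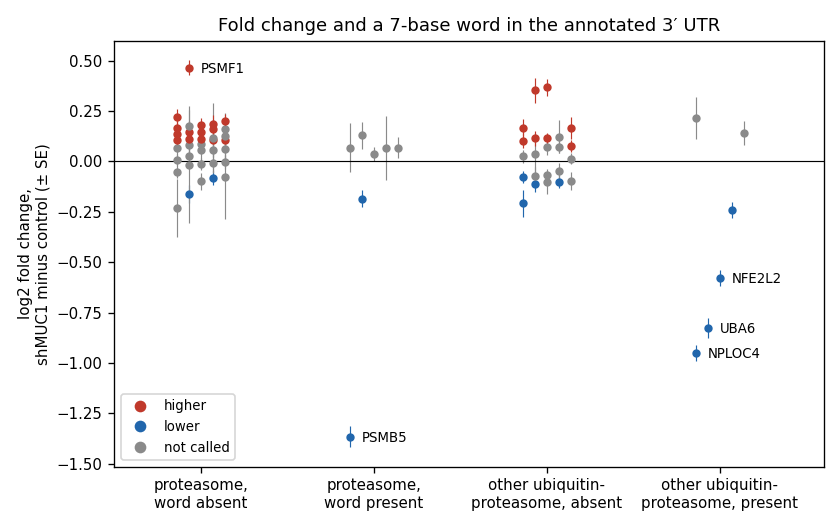
Log2 fold change with SE (y axis) of the 44 tested proteasome genes and the 29 other ubiquitin-proteasome genes. Genes are split by whether the word lies in the annotated 3' UTR of at least 1 transcript, and colour gives the call. PSMB5, NPLOC4, UBA6 and NFE2L2 hold the word, and 5 of the 7 members that hold it were not called.

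Promoters, from 250 bases before to 50 bases after each start, were read from RefSeq (GRCh38.p14) for 40 members and compared with 27305 genes on both strands, a gene counting once if any of its starts held the letters. The antioxidant-type letters TGACNNNGC, which NFE2L1 and NFE2L2 can bind, were in the promoters of 14 members (35.0%) against 16.1% of genes. CCAAT, the letters of the factor NF-Y, were in 19 (47.5%) against 39.7%, and the ETS-type letters CCGGAAG in 15 (37.5%) against 12.2%. The interferon-type letters, GAAA, any 2 bases and GAAA again, were in 6 (15%) against 4.38%. These 6 were PSMA4, PSMB4, PSMB10, PSME1, PSME2 and PSMG4. None was called, where 7872 of the 15355 tested genes were not called either, and no difference can be read from so few. PSMB10 and PSMG4 had low counts (37.7 and 124 on average), and PSME1 was called higher in some alternatives. Promoters of the 2 members that moved most are shown from 5′ to 3′ with CCAAT or CCGGAAG, or its reverse complement, in capitals:
PSMB5, chr14:23035171-23035470, minus strand: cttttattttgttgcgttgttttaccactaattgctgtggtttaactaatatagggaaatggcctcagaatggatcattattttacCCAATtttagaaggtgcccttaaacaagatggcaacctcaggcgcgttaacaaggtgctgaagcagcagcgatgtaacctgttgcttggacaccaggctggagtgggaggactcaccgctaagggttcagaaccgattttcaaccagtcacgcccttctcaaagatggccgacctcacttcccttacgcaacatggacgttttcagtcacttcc
PSMF1, chr20:1118352-1118651, plus strand: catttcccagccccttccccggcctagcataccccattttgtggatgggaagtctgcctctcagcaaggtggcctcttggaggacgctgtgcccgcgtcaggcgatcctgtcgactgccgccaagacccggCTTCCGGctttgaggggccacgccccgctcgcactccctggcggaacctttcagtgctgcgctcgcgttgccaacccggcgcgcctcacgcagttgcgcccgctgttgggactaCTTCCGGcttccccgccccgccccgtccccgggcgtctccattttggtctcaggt
PSMB5 has 1 CCAAT and no antioxidant-type letters in this window, and PSMF1 has CCGGAAG on the opposite strand at 2 places. A further start of each gene in the same table (chr14:23034851-23035150 for PSMB5, chr20:1113013-1113312 for PSMF1) has none of the 4 motifs. Which start these cells use was not examined. These matches describe letters only. PSMA7, PSMB1, PSMB6, PSMB7, PSMD4 and PSMG3 have no entry in the table.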

How the data were processed

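RNA-seq was done on 6 libraries. For each gene symbol the authors deposited counts without normalization, from a stranded poly(A) kit. The submitters' processing notes name CASAVA 1.8.2, STAR 2.7.9a, featureCounts, DESeq2 1.24.0 and GRCh38.p7, without their order. The annotation and the strand and read-pair settings of counting are not given in the sources used here. Values of 1 to 20 counts were even in 68.8% to 70.5% of cases, as when both reads of a pair are counted. Groups followed the labels. Cells were cultured in triplicate, and p-values measure the spread between these samples, which may be technical.

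Counts were scaled (TMM), filtered with filterByExpr and tested two-sided in edgeR 4.0.16 (R 4.3.3) by glmQLFTest, the quasi-likelihood test, on a design with the group alone. SE came from its F statistic, and CPM used the scaled library sizes. The fit was tested on simulated data. Its 95% intervals include the spread between libraries. The floor was 3 counts and covers counting error only. Per-kilobase levels used the union of GENCODE 29 exons (GRCh38), matched by symbol for 98.1% of the table's gene names. Of the other ubiquitin-proteasome genes, 3 are not reported here, and the counts omit them. The members and lists were chosen with earlier results of these data known. Values per library are given for the highest and lowest fold change in each structural group, members past a fold of 1.5, members of fixed role (active sites, PSMB10, PSMD4, PSMD14, PSME genes, PSMF1) and those under 50 counts. Other called members were named after their values were seen.

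Alternatives were DESeq2 1.42.0 and its size factors, library totals, limma-voom (limma 3.58.1), other filters, halved counts, fold thresholds, other definitions of the particles, a replicate block and leaving out each library. Removing a GC content and length trend and leaving out PSMB5 were added after seeing the data.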

Additional observations from a re-analysis of the deposited data

How the results depend on the processing

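PSMB5, PSMF1, PSMB6, PSMC2, PSMD4, PSMD5, PSMD14 and PSME3 kept their direction and call in every one of 15 alternatives, and over all members named by rule 279 of 314 alternative values did so, 14 lost a call, 7 gained one and 14 turned sign. The 15 higher members became 10 with library totals and 10 with a filter at a mean of 50 counts. They became 6 after correction for GC content and length, 0 past a fold of 1.5 or 2, and 12 to 14 with a library left out. The 4 lower members became 1 past either fold and 2 to 5 with a library left out, with 2 without control replicate 1. The 8 higher genes of the pathway list became 4 to 9 with a library left out. The core median became 0.046 with library totals, 0.0862 for the constitutive core, -0.0088 after the correction and 0.0625 to 0.0908 with a library left out. The regulatory median became 0.0098 after the correction and 0.0287 to 0.072 with a library left out, being 0.0287 without shMUC1 replicate 3 and 0.0295 without control replicate 3. Core minus regulatory became -0.0988 with all PSMC and PSMD genes, -0.0161 from summed CPM and 0.0103 without PSMB5. Apart from that last value, which follows from leaving PSMB5 out, the cause was not tested. Log2 fold changes of members that were not called turned sign with a library left out, over ranges of -0.0369 to 0.0172 for PSMB7, -0.0548 to 0.0625 for PSMB10, -0.0333 to 0.0295 for PSMC3, -0.00326 to 0.0753 for PSME2 and -0.0332 to 0.156 for PSMG4. PSMB7 and PSMC3 also turned without the low-count filter, to 0.00568 and 0.00226, and PSME2 after the correction, to -0.0445. Same-numbered libraries did not deviate together (correlations 0.0318, -0.0145 and -0.0314), so they share only a number. A fit with the number as a replicate block gave 16 higher and 5 lower members, 9 higher and 9 lower pathway genes, medians of 0.07 and 0.07, and -0.86 for MUC1. It also called PSME1 higher (adjusted p = 0.0364). Members with few counts, such as PSMB10, limit what could be called.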
